A study of Mus musculus with 12 samples.

Results

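The genes described here make chondroitin sulfate and dermatan sulfate, sugar chains that are attached to secreted and cell-surface proteins. There are 10 of them, taken by symbol from a table of 23337 gene symbols: Csgalnact1, Csgalnact2, Chsy1, Chpf, Chpf2, Chst11, Chst12, Chst15, Ust and Dse. The set was chosen from the fall of 1 member, Csgalnact2, in quiescent knockdown cells, so values of that comparison are given as a description, without a test. The samples were NU1 cells, a line of normal mouse urothelial cells that immortalised spontaneously during passaging, grown in serum-containing medium with epidermal growth factor. The 12 RNA sequencing libraries formed 4 groups of 3: proliferating cells with the hairpin shNT (control), proliferating cells with the Stag2 hairpin sh4 (knockdown), and quiescent cells (day 7) with either hairpin. Hairpins were delivered by lentivirus to cells labelled WT or Stag2-KD, and quiescent cultures were grown to confluence and then given 1 µM rosiglitazone and 0.5 µM erlotinib. Each group had 1 library from each of experiments 5, 7 and 9, which the labels also number as batches. Since a single Stag2 hairpin was used, loss of Stag2 and any other effect of that hairpin cannot be told apart, and confluence, drugs and quiescence cannot be told apart either.

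Chondroitin sulfate is built on a short linker of sugars that core proteins carry on serine, and the same linker can instead be extended into heparan sulfate. Csgalnact1 and Csgalnact2 encode the enzymes that add the first N-acetylgalactosamine, the step that commits the linker to chondroitin. Chsy1, Chpf and Chpf2 encode proteins that lengthen the chain, and Chst11, Chst12, Chst15 and Ust encode sulfotransferases that decorate it. Dse encodes an epimerase that turns chondroitin into dermatan sulfate. In the bladder, chondroitin sulfate is known as part of the sugar layer on the luminal face of the urothelium.

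Library totals ran from 14524429 to 21987539 counts. Levels below are in CPM, the usual count scale relative to the library total, with totals scaled by the TMM method of edgeR, and a level per kilobase divides CPM by the exon length of the gene. Nothing in the labels says that the libraries of a group are independent cultures beyond the experiment number, so p-values measure the spread between these libraries. Stag2 remained at 21.0% ± 3.49 (SD, n = 3) of its control level in proliferating and at 10.1% ± 2.44 (SD, n = 3) in quiescent knockdown cells. Of 19 urothelial and epithelial markers, 14 to 15 had a group mean above 1 CPM, while Trp63, a basal urothelial factor, had no count in any group, Upk3a had none in 3 of the 4, and Upk1b and Upk2 had no group mean above 1 CPM. That list summed to 13149 to 19955 CPM in quiescent control and 22364 to 24130 CPM in quiescent knockdown libraries, without overlap. The summed level of 8 fibroblast markers was at most 2.27 CPM in any library, with Col1a2, Col3a1 and Lum at 0 throughout. Of 5 leukocyte markers only Cd68 and Csf1r exceeded 1 CPM, and their list summed to 39.6 to 61.8 CPM in quiescent control and 110 to 169 CPM in quiescent knockdown libraries, with Cd3e and Emr1 (Adgre1) at 0. The part of these levels in the results was not tested. In such bulk libraries, fewer cells that express a gene and less RNA of it per cell cannot be told apart.

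Of the 10 members, 8 passed the filter on low counts and were tested. Csgalnact1 and Chst15 did not pass it and are described by their counts only. The genes lie on chromosomes 1 (Chpf), 5 (Chpf2 and Chst12), 6 (Csgalnact2), 7 (Chsy1 and Chst15), 8 (Csgalnact1) and 10 (Chst11, Ust and Dse) in GENCODE M21, on the mm10 assembly that the submitters' processing notes name. Csgalnact2 spans chr6:118107452-118139140 and Dse chr10:34151393-34207715, both on the minus strand. Exons of Chpf2 share 2466 bases with Smarcd3 on the opposite strand, those of Chst15 share 1206 bases with the antisense gene Gm10584, and those of Chsy1 share 148 bases with Gm26827. Whether the counting used strand is not given in the sources used here, so for these 3 members reads of the partner cannot be told apart.

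The promoter windows of Csgalnact2, by which the set was chosen, and of Dse, which was lower with quiescence, are shown. Each has 250 bases before and 50 bases after a RefSeq transcript start (GRCm38.p6, minus strand, 5′ to 3′). Capitals mark every CG pair. RefSeq gives Csgalnact2 a pair of windows, and the one shown, chr6:118139091-118139390, is at the start of the GENCODE gene. The other is chr6:118138781-118139080, and the Dse window is chr10:34207186-34207485.
Csgalnact2: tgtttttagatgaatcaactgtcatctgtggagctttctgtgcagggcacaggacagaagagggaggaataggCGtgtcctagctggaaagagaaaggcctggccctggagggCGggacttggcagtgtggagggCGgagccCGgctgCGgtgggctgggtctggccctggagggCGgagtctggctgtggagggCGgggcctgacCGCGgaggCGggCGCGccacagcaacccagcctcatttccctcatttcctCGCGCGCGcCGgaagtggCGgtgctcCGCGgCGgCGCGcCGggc
Dse: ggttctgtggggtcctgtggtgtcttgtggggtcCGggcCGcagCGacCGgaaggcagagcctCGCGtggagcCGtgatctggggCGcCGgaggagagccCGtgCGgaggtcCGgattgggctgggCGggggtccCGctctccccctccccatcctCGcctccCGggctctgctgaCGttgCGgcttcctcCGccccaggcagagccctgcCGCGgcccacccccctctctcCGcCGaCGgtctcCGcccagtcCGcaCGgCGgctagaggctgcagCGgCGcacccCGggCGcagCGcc
In the Csgalnact2 window shown 67.0% of bases were G or C, with 24 CG pairs, in its other window 67.3%, with 32 pairs, and in the Dse window 75.3%, with 33 pairs. RefSeq windows were found for 9 of the 10 members, 12 windows in all, and their GC content ran from 55.0% to 75.3% beside a median of 52.7% over all 32851 windows. They held 15 to 34 CG pairs, beside a median of 7 over all windows. Letters of sites used by cell-cycle repressors were searched on both strands, because DREAM, a repressor complex of cell-cycle genes, is named in the title given to the series. No motif contains another. TTTGAA and TTCGAA, core letters of the cell-cycle homology region, and TTTCCCGC and TTTGGCGC, forms of the E2F site, were in 0 of the 12 windows. They occurred in 17.9%, 1.56%, 1.07% and 0.514% of all windows.

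Csgalnact2 supplied nearly all transcripts of the chain-initiating step. In the 12 libraries it took 91.8% to 100% of the counts of the pair with Csgalnact1. The lowest share was in quiescent knockdown of experiment 9, with 89 counts of Csgalnact2 and 8 of Csgalnact1 (91.8%, exact 95% binomial interval 84.4% to 96.4%, counting error only). Csgalnact1 had 24 and 12 counts in the proliferating control and knockdown libraries of experiment 5 and at most 8 in every other library. 

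Csgalnact2 was lower with the Stag2 hairpin in both states. In proliferating control libraries of experiments 5, 7 and 9 its level was 30.6, 32.2 and 30.5 CPM, and in proliferating knockdown libraries it was 22.1, 19.1 and 12.9 CPM. The control libraries were nearly equal, and all 3 knockdown libraries lay below them, with the lowest in experiment 9. The level that remained was 72.3%, 59.2% and 42.2% of control in experiments 5, 7 and 9, a mean of 57.9% ± 15.1 (SD, n = 3). The rule that chose the gene did not name these libraries, although earlier results of them were known and the fit takes its spread from all 12 libraries. The log2 fold change was -0.79 (SE 0.19, edgeR unadjusted p 0.00168, adjusted p 0.9998), the 15th lowest p of 12406 genes. It was not past the threshold of an adjusted p under 0.05, and with the replicate block, a term for experiment, it was -0.81 (SE 0.15 with an edgeR adjusted p of 0.349).

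In quiescent control libraries Csgalnact2 was at 25.3, 29.0 and 23.8 CPM in experiments 5, 7 and 9, and in quiescent knockdown libraries at 6.62, 6.92 and 5.21 CPM. The groups were far apart and each library of a group was close to the others. The share that remained was 26.2%, 23.9% and 21.9%, a mean of 24.0% ± 2.15 (SD, n = 3), or -2.06 on the log2 scale (SE 0.20). This difference chose the set and has no test here, and the difference between the states was for the same reason not tested. In control cells the quiescent libraries lay below the proliferating ones without overlap (log2 fold change -0.26, SE 0.19), and in knockdown cells quiescence went with a change of -1.53 (SE 0.20). Both values share libraries with the comparison that chose the gene and are descriptions.

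**Figure D1:**
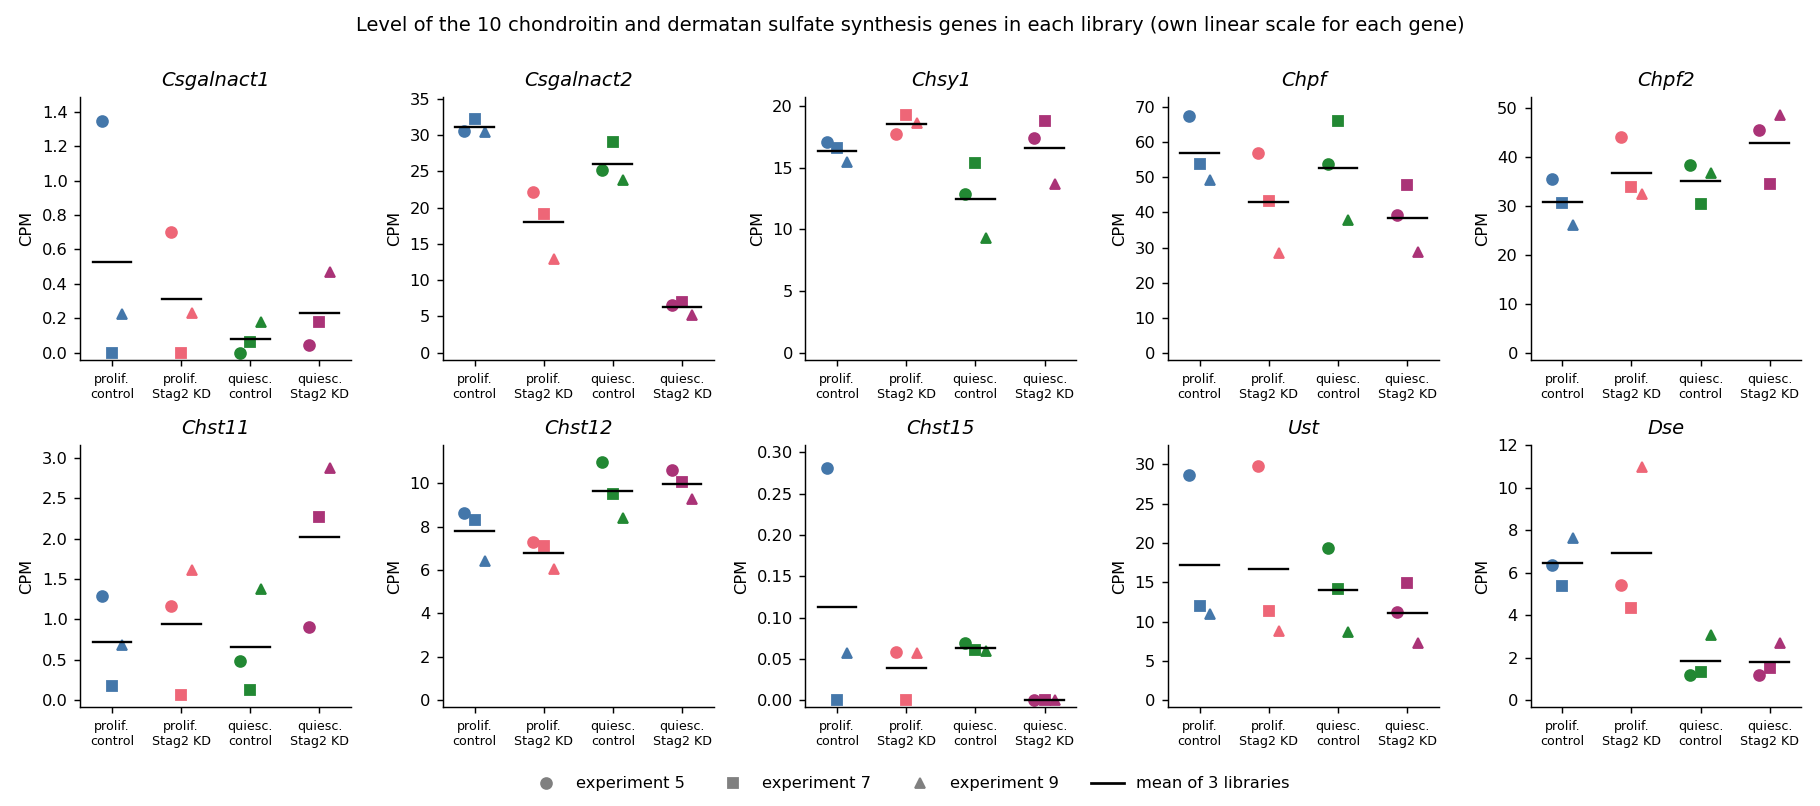
CPM (vertical axis, linear from 0, a separate scale for each gene) of the 10 members in the 4 groups, with 1 point for each library, its shape giving the experiment, and a bar at the mean of 3 libraries. Csgalnact2 sits near 30 CPM in proliferating control and between 5.21 and 6.92 CPM in quiescent knockdown libraries, and Dse is low in all 6 quiescent libraries.

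The genes whose log2 CPM followed that of Csgalnact2 most closely over the 12 libraries were Gorab (Pearson r 0.980), Uqcrc1 (0.975), Csk (0.958), Cfl1 (0.958) and Ppapdc1b (0.955), as a description over libraries that share hairpin, state and experiment. The 12 include the quiescent libraries whose Csgalnact2 values chose the set. Gorab, for example, had means of 13.9 CPM ± 0.372 (SD, n = 3) in proliferating control, 9.94 ± 0.789 in proliferating knockdown, 12.1 ± 0.590 in quiescent control and 6.03 ± 1.002 in quiescent knockdown cells. No other member was near this pattern: Chpf was the closest (r 0.675) and ranked 670 of 12405 genes, while Chpf2 (r -0.614) and Chst11 (r -0.580) ran opposite to it.

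Of the 3 chain-lengthening genes none passed the threshold after knockdown in proliferating cells, where Chpf had lower and Chsy1 and Chpf2 higher values. Chpf, whose protein works with the chondroitin synthases, had 67.5, 53.8 and 49.2 CPM in proliferating control and 56.9, 43.4 and 28.5 CPM in proliferating knockdown libraries of experiments 5, 7 and 9. Within every experiment the knockdown library was the lower one, but the groups overlapped. The log2 fold change was -0.40 (SE 0.28 with an edgeR adjusted p of 0.9998), and in quiescent cells 73.5% ± 1.797 (SD, n = 3) of the control level remained, given as a description. Chsy1, which encodes a synthase that adds both sugars of the repeat, went the other way: it had 17.1, 16.6 and 15.5 CPM in proliferating control and 17.8, 19.2 and 18.6 CPM in proliferating knockdown libraries. The groups did not overlap, yet the log2 fold change was only 0.18 (SE 0.19 with an edgeR adjusted p of 0.9998). In quiescent cells Chsy1 stood at 134.9% ± 12.2 (SD, n = 3) of control in the knockdown. Chpf2, a further polymerising factor, had a log2 fold change of 0.26 (SE 0.18 with an edgeR adjusted p of 0.9998) in proliferating cells and 0.29 (SE 0.18) in quiescent cells, and was the higher in the knockdown in all 3 experiments of both states. Leaving out 1 library moved the value in proliferating cells between -0.66 (without knockdown of experiment 5) and -0.19 (without knockdown of experiment 9) for Chpf. For Chpf2 it moved between 0.11 (without knockdown of experiment 5) and 0.37 (without control of experiment 5).

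Among the sulfotransferases, Chst12, which sulfates the 4 position of N-acetylgalactosamine, differed little within a group. It ran from 6.42 to 8.64 CPM in proliferating control, 6.03 to 7.29 in proliferating knockdown, 8.41 to 11.0 in quiescent control and 9.26 to 10.6 CPM in quiescent knockdown libraries. Chst11, an enzyme of the same activity, had only 1 to 49 counts per library and a range of 0.0596 to 2.87 CPM. Its 3 quiescent knockdown libraries had 20, 38 and 49 counts in experiments 5, 7 and 9, against 7, 2 and 23 in quiescent control. Ust, which sulfates the uronic acid of the chain, was highest in the proliferating libraries of experiment 5 with either hairpin. In experiment 5 it had 28.6 CPM in proliferating control and 29.8 CPM in proliferating knockdown, while the proliferating libraries of experiments 7 and 9 lay between 8.84 and 11.9 CPM. The knockdown values in proliferating cells were -0.20 (SE 0.19) for Chst12, 0.40 (SE 0.99) for Chst11 and -0.04 (SE 0.51) for Ust on the log2 scale, each with an edgeR adjusted p of 0.9998. Chst15, which adds a further sulfate to units that are already sulfated, had at most 5 counts in any library. It had 0 counts in all 3 quiescent knockdown libraries. That allows a level of up to 0.161 CPM at the mean scaled total of the group (3 counts, counting error only).

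After knockdown in proliferating cells, 0 of the 8 tested members had an edgeR adjusted p under 0.05, where 0.0242% of all tested genes did, without and with the replicate block. At an unadjusted p under 0.05 there was 1 member, Csgalnact2, where 1.84% of all genes passed, and with the block there were 2, Csgalnact2 and Chpf, where 5.20% passed. DESeq2 called 0 members too, with an adjusted p of 0.0931 for Csgalnact2, and its share over all genes was not counted. For Csgalnact2 and Chsy1, 2 of the 8, the libraries of the groups did not overlap, as for 5.31% of all genes. The median log2 fold change of the 8 was 0.03, beside -0.0022 over all genes. For the knockdown in quiescent cells Csgalnact2 is left aside, since its values there chose the set. Of the other tested members 0 had an edgeR adjusted p under 0.05, beside 0.435% of all genes in either direction and 0.282% that were lower. With the block it was also 0, beside 3.55% in either direction. None of these other members was without overlap between the groups there, beside 19.1% of all genes.

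**Figure D2:**
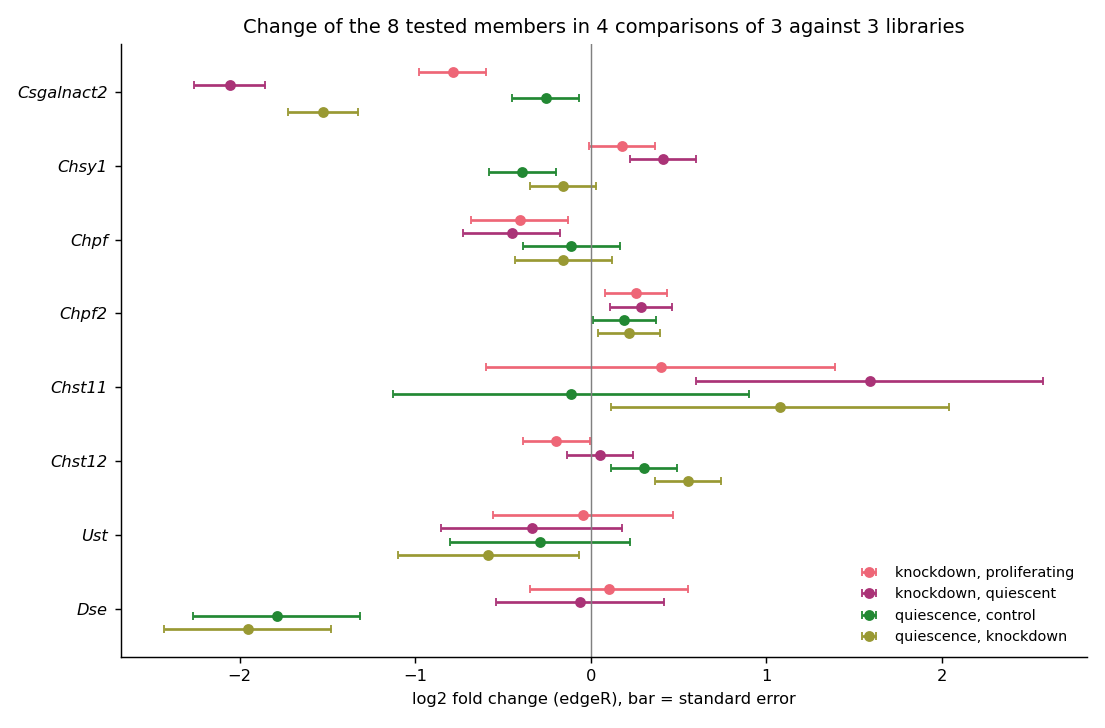
Log2 fold change (horizontal axis) of the 8 tested members in the 4 comparisons, with bars for the standard error of the edgeR fit. Csgalnact2 stands at -0.79 for the knockdown in proliferating and at -2.06 in quiescent cells, and Dse stands near -1.79 and -1.95 for quiescence. The bars of Chst11, Ust and Dse are wider than those of Csgalnact2.

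In control cells 1 member was lower with quiescence, Dse. The 4 proliferation markers summed to 530 to 665 CPM in proliferating and 2.42 to 25.4 CPM in quiescent control libraries, and to 349 to 798 and 14.9 to 85.2 CPM in the knockdown, and their part in the results was not tested. The proliferating control libraries of experiments 5, 7 and 9 had 6.34, 5.37 and 7.61 CPM of Dse and the quiescent control libraries 1.17, 1.35 and 3.04 CPM. Every quiescent library lay below every proliferating one, and experiment 9 was highest in both states. The level that remained was 27.8% ± 11.0 (SD, n = 3), or -1.79 on the log2 scale (SE 0.47 with an edgeR adjusted p of 0.0224). In knockdown cells Dse went from 5.42, 4.35 and 11.0 CPM to 1.18, 1.49 and 2.70 CPM, with 26.9% ± 6.57 (SD, n = 3) remaining and a log2 fold change of -1.95 (SE 0.48 with an edgeR adjusted p of 0.0165). For the knockdown itself the values of Dse were smaller than their error: the log2 fold change was 0.10 (SE 0.45 with an edgeR adjusted p of 0.9998) in proliferating cells, and -0.06 (SE 0.48) in quiescent cells as a description. The call in control cells was lost without proliferating control of experiment 9 (edgeR adjusted p 0.0669) or without quiescent control of experiment 5 (0.090) or 7 (0.0767). In knockdown cells it was lost without proliferating knockdown of experiment 9 (0.0692) or without quiescent knockdown of experiment 5 (0.0683) or 7 (0.0551).

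Each comparison shares a group of 3 libraries with others here, so their values are set side by side only. Quiescence in control cells called 1 of 8 members, beside 20.0% of all genes in either direction and 11.7% lower, and with the replicate block also 1, beside 35.3%. The groups did not overlap for 3 of the 8, Csgalnact2, Chsy1 and Dse, beside 35.6% of all genes. The median of the 8 was -0.18, beside 0.0047 over all genes. In knockdown cells 2 members passed, Dse and Csgalnact2, beside 18.4% in either direction and 10.8% lower, and the libraries did not overlap for Csgalnact2, Chst12 and Dse, beside 37.2%. Csgalnact2 is counted there although its quiescent knockdown libraries chose the set. Chsy1 had -0.39 (SE 0.19 with an edgeR adjusted p of 0.167) with quiescence in control and -0.16 (SE 0.19) in knockdown cells. Chst12 had a log2 fold change of 0.55 (SE 0.19 with an edgeR adjusted p of 0.0644) with quiescence in knockdown cells. With the replicate block its edgeR adjusted p was 0.0128, so that 3 members passed, beside 33.0% of all genes, and the DESeq2 adjusted p was 0.0219.

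Compared per kilobase of exon, Chpf had the highest mean level of the 10 in each group, but in both knockdown groups its libraries overlapped with those of Chpf2. In proliferating control it had 14.7 CPM per kilobase ± 2.47 (SD, n = 3), followed by Csgalnact2 with 5.72 ± 0.177 and Chpf2 with 5.499 ± 0.839, which overlapped. Chsy1 (3.92 ± 0.202), Ust (3.72 ± 2.14) and Chst12 (3.298 ± 0.507) came next. Ust overlapped with both of these, while Chsy1 lay below Chpf2 and Chst12 lay above Dse without overlap. Dse had 1.29 ± 0.226, above the 3 scarce members Chst11, Csgalnact1 and Chst15, which were at most 0.129 on average. In quiescent knockdown cells the order was Chpf (9.99 ± 2.48), Chpf2 (7.66 ± 1.32), Chst12 (4.23 ± 0.288), Chsy1 (3.98 ± 0.636) and Ust (2.41 ± 0.826), and Csgalnact2 was sixth with 1.15 ± 0.167, with no overlap with Ust above it or Chst11 (0.365 ± 0.182) below it.

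**Figure D3:**
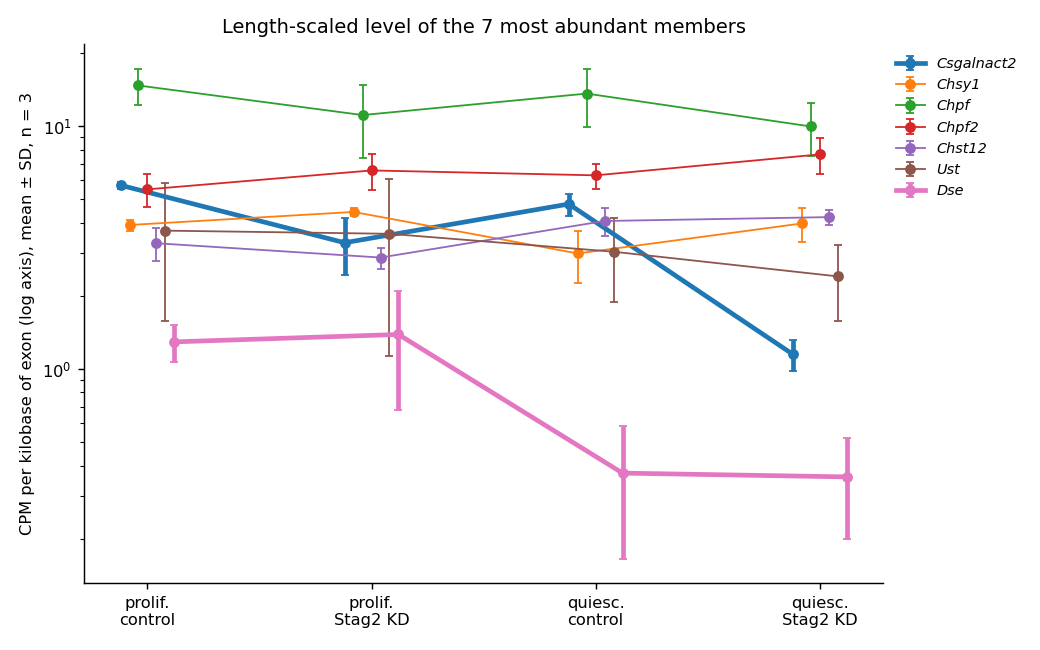
Mean level per kilobase of exon (vertical log axis, CPM per kilobase) of 7 members, the tested ones without Chst11, in the 4 groups. Bars show the SD of 3 libraries. In quiescent knockdown cells Chst11, not shown, had 0.365 and Dse 0.359. Csgalnact2 goes from 5.72 in proliferating control to 1.15 in quiescent knockdown cells and passes below Chsy1, Ust and Chst12, while Dse drops in both quiescent groups.

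The genes around these members were then counted from lists of the linker, of the competing heparan sulfate branch, of donors, of carrier proteins and of breakdown. After knockdown in proliferating cells 0 genes of any list had an edgeR adjusted p under 0.05, beside 0.0242% of all genes, without or with the replicate block. Counts at an unadjusted p under 0.05 were 1 of 7 tested linker genes, 1 of 15 heparan sulfate genes and 0 in the others, beside 1.84% of all genes. In quiescent cells too, as a description, the lists had 0 calls, beside 0.435% of all genes. With the block there were 3, beside 3.55%: Thbd, which encodes thrombomodulin, higher, and the lysosomal enzymes Hexa and Gusb, lower. Thbd went from 128 CPM ± 44.9 (SD, n = 3) in quiescent control to 385 ± 54.2 in quiescent knockdown cells.

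With quiescence in control cells, 4 of 9 genes of chondroitin and dermatan sulfate breakdown rose and 0 fell, beside 8.33% of all genes that rose. The hyaluronidase gene Hyal1 went from 14.6 CPM ± 3.38 (SD, n = 3) to 40.3 ± 8.14, or 1.47 on the log2 scale (SE 0.26 with an edgeR adjusted p of 0.00277). The other 3 were Hyal3, Hexa and Idua, with log2 fold changes of 2.21, 1.31 and 1.26. Hyal3 was scarce, with 4 to 9 counts per library in proliferating control and 23 to 33 in quiescent control. The annotated spans of Hyal1 and Hyal3 overlap on the same strand. Shared exon bases were examined for the members only, so how far the reads of Hyal1 and Hyal3 are separate was not tested. The median of the 9 was 0.54. In knockdown cells 3 of the 9 rose, Hyal3, Idua and Hyal1, beside 7.59% of all genes, and their values were 1.99, 1.42 and 1.21 on the log2 scale. With the block 5 rose in control cells, and in knockdown cells 5 rose and Gusb fell, beside 16.8% and 15.9% of all genes that rose.

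Of 24 proteins that can carry the chains, 8 were tested, and quiescence in control cells lowered Vcan and Cd44 and raised Tgfbr3 and App. Vcan, which encodes the large chondroitin sulfate proteoglycan versican, fell from 60.2 CPM ± 16.5 (SD, n = 3) to 8.49 ± 4.27, or -2.82 on the log2 scale (SE 0.57 with an edgeR adjusted p of 0.00586). Cd44, a hyaluronan receptor that can bear chondroitin sulfate, fell from 313 CPM ± 98.6 (SD, n = 3) to 79.1 ± 12.1, or -1.99 on the log2 scale (SE 0.35 with an edgeR adjusted p of 0.0031). Tgfbr3 and App had 1.52 and 0.96 (edgeR adjusted p 0.0359 and 0.0193). Tgfbr3 was past the threshold only without proliferating control of experiment 5 among the 6 fits that left out 1 library, and App was not past it without proliferating control of experiment 9 or quiescent control of experiment 5. In knockdown cells Vcan, Cd44 and App passed, with -3.77, -2.28 and 0.95, and App was lost there without proliferating knockdown of experiment 7 or 9 or quiescent knockdown of experiment 5 or 9. These 4 and 3 of 8 stand beside 20.0% and 18.4% of all genes in control and knockdown cells, and with the block 7 and 4 of 8 stand beside 35.3% and 33.0%. Levels of Bgn, Dcn, Acan, Bcan and Ncan, the other classic proteoglycan genes of the list, were below 0.5 CPM in every group mean.

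In the heparan sulfate branch 3 of 15 tested genes passed with quiescence in control cells and 1, Ndst3, in knockdown cells, beside 20.0% and 18.4% of all genes. With the replicate block 4 and 5 passed, beside 35.3% and 33.0%. The sulfotransferase genes Ndst3 and Hs2st1 had log2 fold changes of -2.72 and -0.48, and Hs3st3b1 had 2.23. Hs2st1 was past the threshold in 1 of 6 fits that left out 1 library, the one without proliferating control of experiment 9, and Hs3st3b1 was lost without proliferating control of experiment 7 or 9 or quiescent control of experiment 5. Of 11 genes for sugar and sulfate donors and their transporters, 0 had an edgeR adjusted p under 0.05 with quiescence. That stands beside 20.0% of all genes in control and 18.4% in knockdown cells. Before adjustment the edgeR p was under 0.05 for 1 in control and 4 in knockdown cells, beside 34.8% and 33.0% of all genes. DESeq2 called 1 of the 11 in each, and its share over all genes was not counted. With the block 3 and 5 of the 11 passed, beside 35.3% and 33.0%, among them Ugdh and Uxs1, whose enzymes make the uronic acid and xylose donors, lower in both. Of 7 linker genes and of 4 tested other chondroitin and dermatan sulfate enzymes 0 passed. With the block 1 each passed in control cells, Fam20b and Dsel, both higher. Dsel went from 13.2 CPM ± 5.45 (SD, n = 3) in proliferating control to 25.4 ± 7.57 in quiescent control cells. In the knockdown it went from 13.4 ± 3.44 to 15.4 ± 1.74 CPM. The 3 hyaluronan synthase genes did not pass the filter on low counts.

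**Figure D4:**
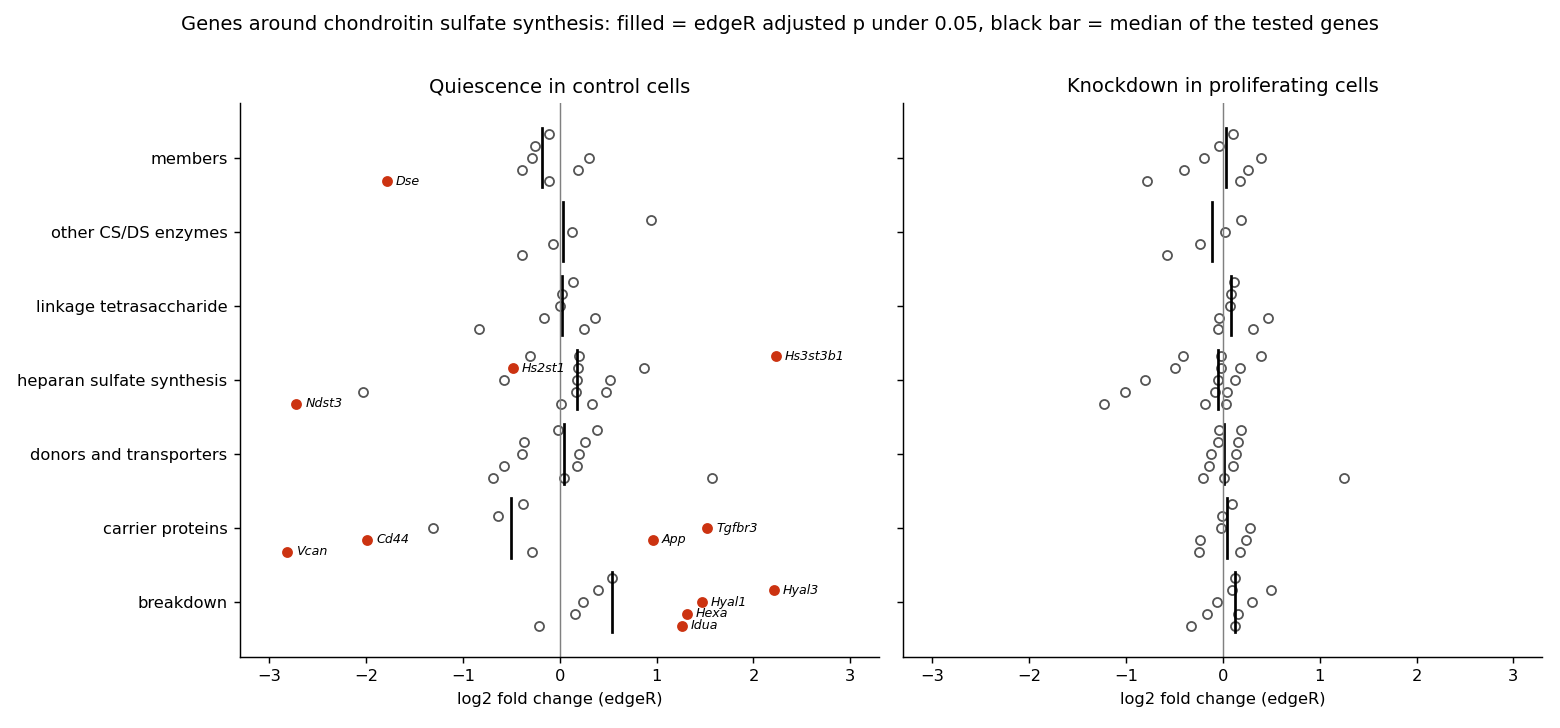
Log2 fold change (horizontal axis) of the tested genes of 7 lists that are reported here, 1 point each, for quiescence in control cells (left) and knockdown in proliferating cells (right), filled where the edgeR adjusted p was under 0.05, with a bar at the median. On the left, the filled points to the right of 0 are 4 breakdown genes, Hs3st3b1, Tgfbr3 and App, those to the left are Dse, Ndst3, Hs2st1, Vcan and Cd44, and on the right no point is filled.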

How the data were processed

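The authors deposited 1 table of raw, unnormalized counts by gene symbol. Per the submitters' processing notes, Bowtie, TopHat, HTSeq and DESeq2 were used with the build mm10. Versions, annotation and the strand setting are not given in the sources used here. Per the labels' protocols, the libraries were stranded and made from polyadenylated RNA with ERCC spike-ins added. The table holds 0 ERCC rows.

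Counts were fitted in R 4.3.3 with edgeR 4.0.16. filterByExpr with a minimum count of 10 kept 12406 genes, and libraries were scaled by TMM. The means of the 4 groups were estimated with glmQLFit from the 12 libraries together. Differences were tested with glmQLFTest and Benjamini-Hochberg adjustment over all genes tested. Log2 CPM used a prior count of 2. Fold changes are relative to the TMM scale, on which the median gene moved by under 0.02 in every comparison without the replicate block. With the block it moved by 0.024 for the knockdown in quiescent cells. The code was tested on simulated data. Libraries of a group differed by a chi-square of at least 36.6 per degree of freedom, so none was a repeat of another.

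The experiment number pairs libraries across groups, since the labels give it as a batch. Deviations from group means correlated between same-numbered libraries in each of 18 pairs (r 0.225 to 0.789, mean 0.526). The paired alternative adds a term for experiment (the replicate block). Other alternatives were median-of-ratios size factors, DESeq2 1.42.0, no filter, a minimum mean count of 50, using just the 6 libraries compared, and leaving out each library.

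Members and lists were chosen with earlier results of these data known. All members are named, and from each list up to 6 genes past the threshold. A few list genes are not reported here and were left out of the list counts, medians and sums. The symbols Pxylp1 and Adgre1 were matched as Acpl2 and Emr1. Exon lengths are from GENCODE M21.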

Additional observations from a re-analysis of the deposited data

How the results depend on the processing

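The counts of members past the threshold were within 1.5 times of those reported under DESeq2, size factors by the median of ratios, no filter, a minimum mean count of 50, the 6 compared libraries alone, and the replicate block. Leaving out 1 library gave 0 to 1 members for quiescence in control cells and 1 to 2 in knockdown cells. The counts in knockdown cells include Csgalnact2, whose quiescent knockdown libraries chose the set, so they are a description. The knockdown change of Csgalnact2 lay between -0.96 and -0.60 in proliferating cells and between -2.13 and -1.94 in quiescent cells when 1 library was left out. The sign of small changes was not stable. With the replicate block the knockdown change of Dse in proliferating cells was -0.0039. Leaving out 1 library gave, for the knockdown in proliferating cells, -0.23 to 1.13 for Chst11, -0.77 to 0.54 for Ust and -0.41 to 0.35 for Dse. For quiescence in control cells it gave -0.298 to 0.078 for Chpf, -1.25 to 0.62 for Chst11 and -0.58 to 0.29 for Ust. For quiescence in knockdown cells it gave -0.38 to 0.10 for Chpf and -0.89 to 0.14 for Ust. None of these was called, and the cause was not tested. With the replicate block, the same-numbered libraries taken as pairs, Csgalnact2 had -0.81 in proliferating and -2.06 in quiescent cells, and the block added 1 call among the members, Chst12 for quiescence in knockdown cells (0.56). Over all genes the block gave 440 calls in place of 54 for the knockdown in quiescent cells, 4374 in place of 2481 for quiescence in control cells and 4096 in place of 2279 in knockdown cells. Using the 6 compared libraries alone lost Hs3st3b1, Hs2st1, Tgfbr3 and App in control cells. Counting depth limits Csgalnact1, Chst11 and Chst15.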
